A study of Mus musculus with 6 samples.

Results

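The matrix metalloproteinases (MMPs) described here are the 9 genes Mmp2, Mmp8, Mmp9, Mmp12, Mmp13, Mmp14, Mmp19, Mmp25 and Mmp27, found by gene name among the 57180 genes of the deposited count table. They were measured by RNA sequencing in macrophages grown from mouse marrow with the growth factor M-CSF. Cells came from wild-type mice aged 6 to 8 weeks, whose strain and sex the labels do not give, and were grown in M-CSF at 20 ng/mL for 7 days. The IL-4+CGRP group (3 libraries) then received interleukin-4 (IL-4) together with calcitonin gene-related peptide (CGRP), a neuropeptide of sensory nerves, and the IL-4 group (3 libraries) received IL-4 without CGRP, each for 24 h. IL-4 was used at 20 ng/mL. IL-4 drives alternative activation of macrophages. Every group contained IL-4, and no untreated group was analysed here. The dose of CGRP is left out, since the wording of the labels is ambiguous. Whether the 3 libraries of a group are separate cultures or separate mice is not stated, and the p-values therefore reflect only the scatter among these samples, which may be technical.

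MMPs are zinc-dependent endopeptidases that cut collagens, elastin, proteoglycans and many secreted or cell-surface proteins. Most are made as inactive zymogens, held shut by a cysteine of the prodomain and opened by proteolytic cleavage, and are blocked by the tissue inhibitors of metalloproteinases (TIMPs). Macrophages are a known source of several MMPs, and Mmp12 is widely called macrophage metalloelastase. The amounts given below are messenger RNA, which says nothing of how much enzyme was active.

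Libraries held 23869303, 21768588 and 21984645 counts in IL-4+CGRP replicates 1 to 3 and 20088895, 21536259 and 24060444 counts in IL-4 replicates 1 to 3. Levels are in CPM, a unit of counts relative to the total of the library, here after TMM scaling, given as mean ± SD with n = 3 each, and fold changes and adjusted p-values are from the edgeR quasi-likelihood test, with p-values adjusted by Benjamini-Hochberg across the 13260 genes tested. A gene was called at an adjusted p under 0.05. On the first principal component (37.6% of variance), IL-4+CGRP replicate 2 lay at -0.17, between the other IL-4+CGRP libraries at 21.98 and 27.05 and the IL-4 libraries at -25.97 to -11.22. The macrophage markers Lyz2 and Csf1r averaged 4365 and 3711 CPM in IL-4+CGRP cultures and 4166 and 3486 CPM in IL-4 cultures.

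All 9 MMP genes passed the filter on low counts. With CGRP, 5 rose (Mmp8, Mmp13, Mmp14, Mmp25 and Mmp27), 1 fell (Mmp12) and 3 did not pass the test (Mmp2, Mmp9 and Mmp19). Of all tested genes 3.85% were called, 2.32% higher (307 genes) and 1.54% lower (204 genes). Scaled by library totals alone, 354 genes were higher and 143 lower. The groups did not overlap for 6 of the 9 MMPs, the same 6 genes that were called, against 21.0% of all tested genes. The median log2 fold change was 0.37 over the 9 MMPs and 0.00 over all tested genes. DESeq2 and limma-voom each also called 6 of the 9. These are values of bulk cultures, in which a change in the number of cells that make a transcript and a change in the transcript made per cell cannot be told apart.

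**Figure D1:**
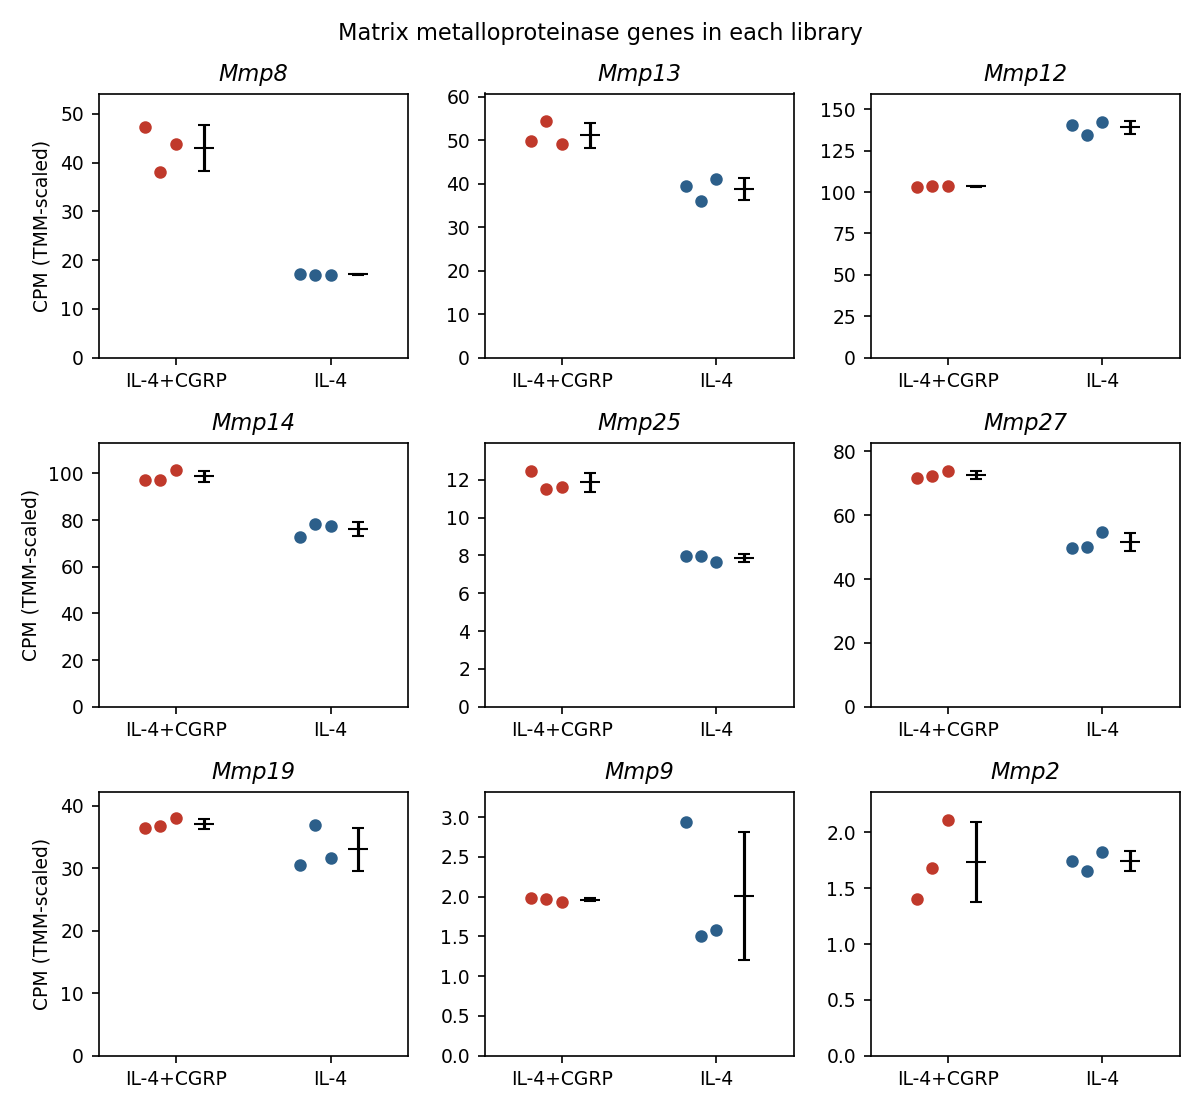
Level of each of the 9 MMP genes in CPM (vertical axes, each from 0) in every library, IL-4+CGRP in red on the left and IL-4 in blue on the right. Points are single libraries (n = 3 per group), bars are means and error bars are SD. Mmp8, Mmp13, Mmp14, Mmp25 and Mmp27 sit higher with CGRP, Mmp12 sits lower, and the groups overlap for Mmp2, Mmp9 and Mmp19.

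Both secreted collagenases of the list rose. Mmp8 (ENSMUSG00000005800), a collagenase stored in neutrophil granules that cuts fibrillar collagen, measured 47.2, 38.0 and 43.9 CPM in the IL-4+CGRP libraries and 17.2, 17.0 and 17.1 CPM in the IL-4 libraries. Every IL-4+CGRP library was above every IL-4 library, with replicate 2 the lowest of the IL-4+CGRP group. Mmp8 rose 2.52-fold (95% interval 2.21 to 2.87), or 1.33 ± 0.09 (SE) on the log2 scale (edgeR adjusted p = 5.4e-06), and ranked 10 among all tested genes by p. Its mean was 43.1 ± 4.67 CPM in IL-4+CGRP cultures and 17.1 ± 0.0918 CPM in IL-4 cultures.

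Mmp13 (ENSMUSG00000050578), the other secreted collagenase, measured 49.8, 54.4 and 49.3 CPM in IL-4+CGRP libraries and 39.5, 36.1 and 41.0 CPM in IL-4 libraries. The groups did not overlap, and replicate 2 was the highest of the IL-4+CGRP group and the lowest of the IL-4 group. Mmp13 rose 1.31-fold (95% interval 1.18 to 1.46, log2 fold change 0.39 ± 0.07 SE, edgeR adjusted p = 0.0072). Without IL-4 replicate 2 the log2 fold change was 0.34 and the call ended, with an edgeR adjusted p of 0.0609.

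Mmp12 (ENSMUSG00000049723), the elastase, was the only member called lower. It measured 103, 103 and 104 CPM in IL-4+CGRP libraries and 141, 135 and 142 CPM in IL-4 libraries, so that the groups stood apart by more than the spread within either. Mmp12 fell 1.34-fold (log2 fold change -0.43 ± 0.05 SE, 95% interval -0.54 to -0.32, edgeR adjusted p = 5.9e-04). In the annotation used here it lies opposite Mmp1b, which had 0 counts in all 6 libraries, and shares a stretch of 122 bases with another transcript.

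Both membrane-anchored members rose. Mmp14 (ENSMUSG00000000957), a transmembrane collagenase that also activates pro-MMP2, measured 97.4, 97.3 and 102 CPM in IL-4+CGRP libraries and 72.9, 78.2 and 77.4 CPM in IL-4 libraries. All IL-4+CGRP libraries were above all IL-4 libraries, and the fold change was 1.30 (95% interval 1.20 to 1.40, log2 0.37 ± 0.05 SE, edgeR adjusted p = 0.00195). Mmp25 (ENSMUSG00000023903), which is held at the membrane by a lipid anchor and is known from leukocytes, measured 12.5, 11.5 and 11.6 CPM in IL-4+CGRP libraries and 7.995, 7.98 and 7.63 CPM in IL-4 libraries. These groups did not overlap either, and Mmp25 rose 1.51-fold (95% interval 1.30 to 1.75, log2 0.59 ± 0.10 SE, edgeR adjusted p = 0.00466). Mmp14 shares up to 133 bases with other transcripts, and Mmp25 overlaps 2 genes on the opposite strand.

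Mmp27 (ENSMUSG00000070323), a less studied member, measured 71.6, 72.2 and 74.0 CPM in IL-4+CGRP libraries and 49.8, 50.1 and 54.8 CPM in IL-4 libraries. The groups did not overlap, and Mmp27 rose 1.41-fold (log2 fold change 0.49 ± 0.06 SE, edgeR adjusted p = 5.4e-04). Mmp19 (ENSMUSG00000025355), a secreted member with basement membrane substrates, measured 36.4, 36.8 and 38.0 CPM in IL-4+CGRP libraries and 30.5, 37.0 and 31.6 CPM in IL-4 libraries. IL-4 replicate 2 lay within the IL-4+CGRP range, and Mmp19 did not pass the test (fold change 1.12, 95% interval 0.995 to 1.26, edgeR adjusted p = 0.34). Mmp19 shares stretches of up to 789 bases with genes on the opposite strand, and since the sources used here do not say whether counting used strand, its counts are uncertain. Of these opposite genes Tmem198b was tested, and it averaged 8.80 ± 0.258 CPM in IL-4+CGRP cultures and 9.24 ± 0.773 CPM in IL-4 cultures (edgeR adjusted p = 0.80).

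The gelatinases, which digest denatured collagen and basement membrane collagen, were the lowest of the 9. Mmp9 (ENSMUSG00000017737) measured 1.98, 1.97 and 1.94 CPM in IL-4+CGRP libraries (48, 43 and 43 counts) and 2.93, 1.502 and 1.58 CPM in IL-4 libraries (58, 32 and 38 counts). The IL-4+CGRP values lay inside the wider IL-4 range, and the 95% interval of the fold change ran from 0.654 to 1.49 (edgeR adjusted p = 0.98). Mmp2 (ENSMUSG00000031740) measured 1.40, 1.68 and 2.11 CPM in IL-4+CGRP libraries and 1.74, 1.65 and 1.83 CPM in IL-4 libraries. Its groups overlapped too, with a 95% interval of 0.700 to 1.43 (edgeR adjusted p = 0.999). Changes of the size those intervals hold were not detectable in these libraries. Without IL-4 replicate 1 the log2 fold change of Mmp9 was 0.35 (edgeR adjusted p = 0.639).

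**Figure D2:**
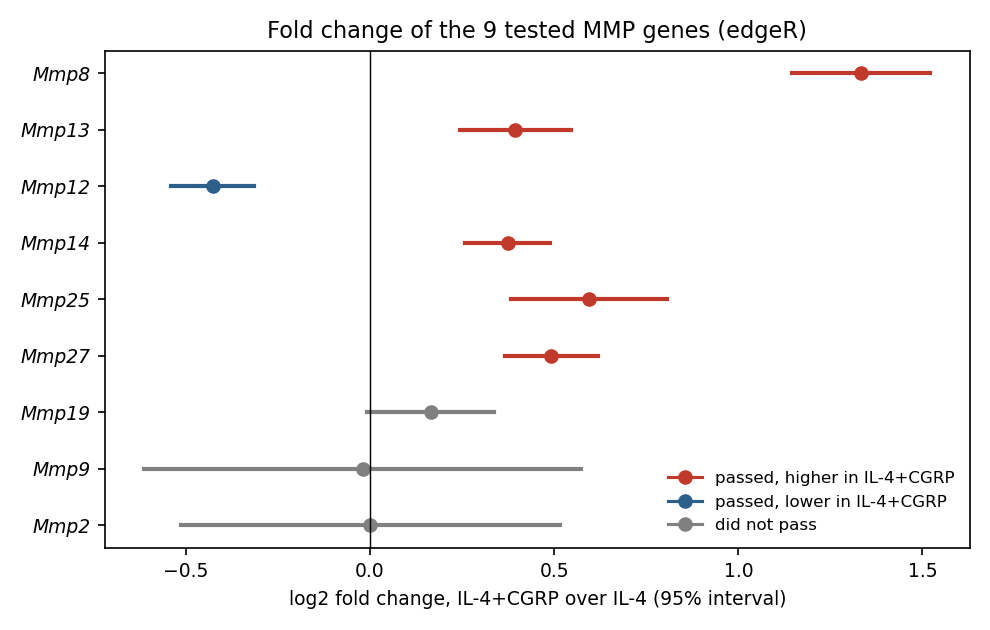
Log2 fold change of each MMP gene, IL-4+CGRP over IL-4 (horizontal axis), with its 95% interval from the edgeR fit (n = 3 libraries per group), in red or blue where it passed and grey where it did not. Mmp8 lies farthest to the right at 1.33, Mmp12 lies left of 0 at -0.43, and the intervals of Mmp2, Mmp9 and Mmp19 include 0.

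To set genes beside each other, levels were divided by the gene length in the deposited table, whose derivation is not given. In IL-4+CGRP cultures the order was Mmp27 at 43.4, Mmp14 at 38.0, Mmp12 at 28.7, Mmp13 at 19.1, Mmp8 at 17.8, Mmp19 at 10.9, Mmp25 at 2.62, Mmp9 at 0.619 and Mmp2 at 0.563 CPM per kilobase, where the neighbours Mmp13 and Mmp8, and Mmp9 and Mmp2, overlapped between libraries. In IL-4 cultures Mmp12 came first at 38.6, before Mmp27 at 30.8 and Mmp14 at 29.3, which overlapped, then Mmp13 at 14.5, Mmp19 at 9.71, Mmp8 at 7.05, Mmp25 at 1.74, Mmp9 at 0.632 and Mmp2 at 0.565 CPM per kilobase, the last 2 overlapping. On this scale Mmp12 stood below Mmp27 and Mmp14 with CGRP and above both without it. That change of order depends on the lengths used. Before division by length Mmp12 had the highest mean in both groups. With CGRP it was 103 CPM, against 98.7 for Mmp14 and 72.6 for Mmp27, and without CGRP 139 CPM, against 76.2 and 51.6.

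As a share of the summed CPM per kilobase of the 9 genes, Mmp12 made up 17.7% ± 0.175 in IL-4+CGRP cultures and 29.0% ± 0.714 in IL-4 cultures (SD, n = 3 each). Mmp8 made up 11.0% ± 1.13 in IL-4+CGRP cultures and 5.31% ± 0.134 in IL-4 cultures. Mmp27 held 26.8% ± 0.303 with CGRP and 23.2% ± 0.724 without, and Mmp14 held 23.5% ± 0.335 with CGRP and 22.1% ± 0.743 without.

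**Figure D3:**
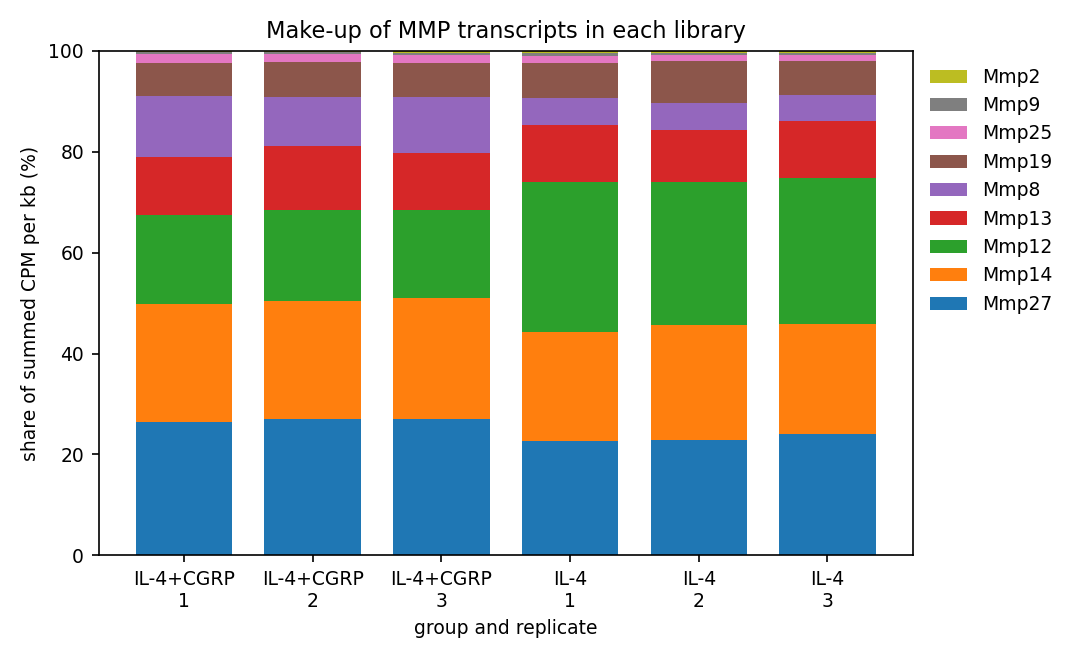
Stacked share of each MMP gene in the summed CPM per kilobase of the 9 genes (percent) in every library, IL-4+CGRP libraries left of IL-4 libraries. The Mmp12 share is near 17.7% with CGRP and near 29.0% without, and the Mmp8 share is near 11.0% with CGRP and near 5.31% without.

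The summed level of the 9 genes was 421, 417 and 426 CPM in IL-4+CGRP libraries and 363, 364 and 375 CPM in IL-4 libraries. The groups did not overlap, the ratio of means was 1.15, and the two-sided exact permutation p was 0.1, the smallest that 3 libraries against 3 allow. Without Mmp12 the sum averaged 318 ± 4.31 CPM in IL-4+CGRP cultures and 228 ± 5.28 CPM in IL-4 cultures, a ratio of 1.39. Leaving out the only member called lower had to raise the ratio. Without Mmp14, which rose, the ratio was 1.11.

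Ratios of counts within a library do not depend on how libraries are scaled. Mmp8 over Mmp12 was 0.459, 0.368 and 0.423 in IL-4+CGRP libraries and 0.122, 0.127 and 0.120 in IL-4 libraries, a 3.37-fold difference. Mmp27 over Mmp12 was 0.695, 0.699 and 0.712 in IL-4+CGRP libraries and 0.355, 0.372 and 0.386 in IL-4 libraries, a 1.89-fold difference. Mmp8 also stood apart from the other genes that rose, with ratios to Mmp25, Mmp27, Mmp13 and Mmp14 that were 1.66, 1.78, 1.91 and 1.93 times as high in IL-4+CGRP cultures. Of 21 pairs among the 7 members other than Mmp2 and Mmp9, 17 had groups that did not overlap. Each of those 17 pairs had an exact permutation p of 0.1, the smallest possible, and 0.124 after adjustment over the 21 pairs. The 17 include all 6 pairs with Mmp12 and all 6 with Mmp8, and the pair of Mmp8 with Mmp12 is in both sets. Pairs that share a gene are not independent, and the share among pairs of all tested genes was not computed. Mmp13 over Mmp14 overlapped, at 0.511, 0.559 and 0.485 in IL-4+CGRP libraries and 0.541, 0.462 and 0.530 in IL-4 libraries.

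Mmp8, Mmp12, Mmp13 and Mmp27 lie in a cluster of 10 MMP genes on chromosome 9, with 0 other protein-coding genes between them in RefSeq. Inside it Mmp13, Mmp8 and Mmp27 rose and Mmp12 fell, while Mmp1a, Mmp1b and Mmp20 had 0 counts in all libraries and Mmp3, Mmp7 and Mmp10 had at most 14 counts in any library. Among the nearest protein-coding genes on both sides, 7 were tested and 0 were called by edgeR, with 1 at an unadjusted p under 0.05, and 0 were called by DESeq2 or limma-voom. That gene, Birc3, an inhibitor of apoptosis, averaged 74.2 ± 4.59 CPM in IL-4+CGRP cultures and 63.5 ± 1.01 CPM in IL-4 cultures (edgeR adjusted p = 0.0598). Birc3 passed under 5 of 16 alternatives: upper quartile scaling, library totals alone, no count filter, without IL-4+CGRP replicate 2 (edgeR adjusted p = 0.00501), and without that library and IL-4 replicate 1 together (edgeR adjusted p = 0.00159).

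**Figure D4:**
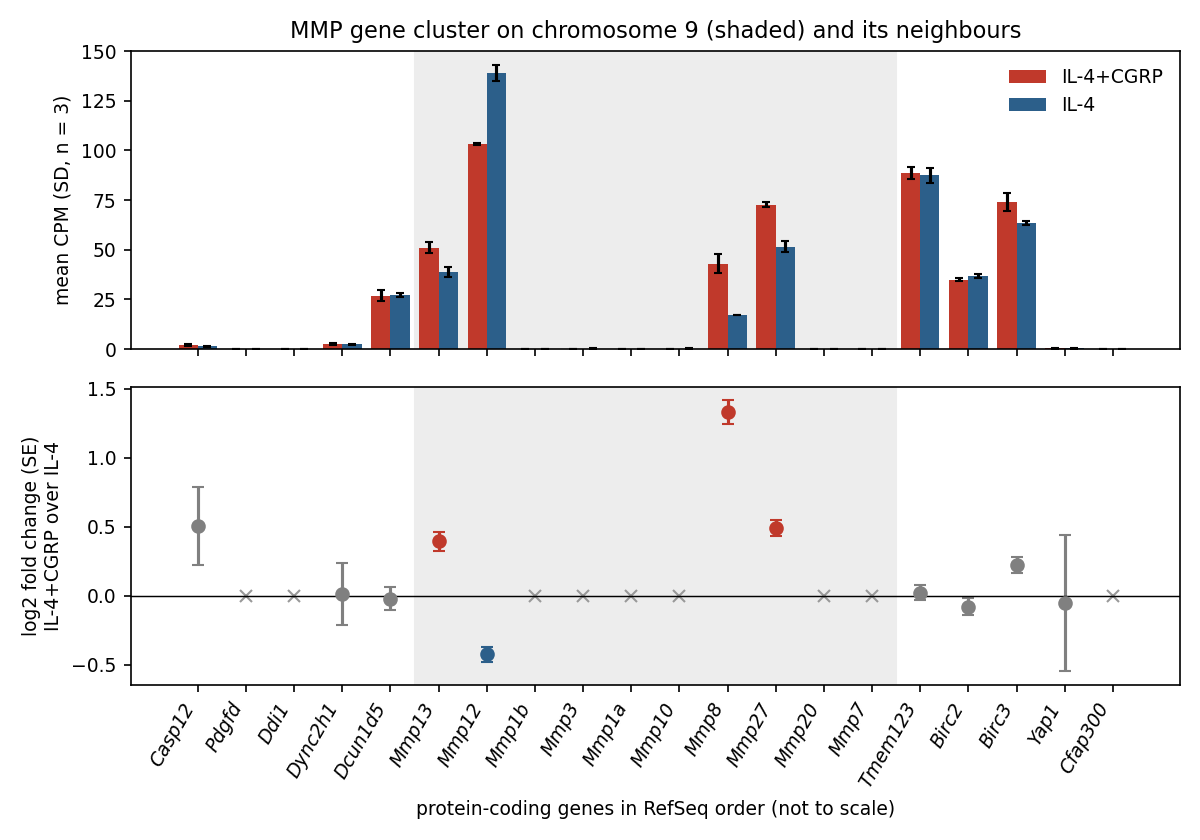
Genes of the MMP cluster of chromosome 9 (shaded) and their protein-coding neighbours in RefSeq order, not to scale, with mean CPM and SD (n = 3 per group, IL-4+CGRP in red, IL-4 in blue) in the upper panel and the edgeR log2 fold change with its SE, IL-4+CGRP over IL-4, in the lower panel, where crosses mark genes that were not tested. Mmp13, Mmp8 and Mmp27 lie above 0, Mmp12 lies below 0, and no flanking gene was called.

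Start regions of 3 cluster genes are shown because their transcripts moved in different directions. They come from RefSeq on build GRCm38.p6, which is not the build the authors counted on, and cover 250 bases before to 50 bases after the start on the plus strand. Mmp8 is at chr9:7558179-7558478, Mmp13 at chr9:7272264-7272563 and the second of 2 Mmp12 starts at chr9:7347124-7347423. Capitals mark the AP-1 motif, TGACTCA or TGAGTCA on either strand.
Mmp8: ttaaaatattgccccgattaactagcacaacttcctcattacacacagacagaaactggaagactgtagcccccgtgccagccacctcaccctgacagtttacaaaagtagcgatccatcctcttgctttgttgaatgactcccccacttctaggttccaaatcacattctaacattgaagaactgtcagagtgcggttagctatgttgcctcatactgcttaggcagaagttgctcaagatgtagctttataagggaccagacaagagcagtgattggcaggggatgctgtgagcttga
Mmp13: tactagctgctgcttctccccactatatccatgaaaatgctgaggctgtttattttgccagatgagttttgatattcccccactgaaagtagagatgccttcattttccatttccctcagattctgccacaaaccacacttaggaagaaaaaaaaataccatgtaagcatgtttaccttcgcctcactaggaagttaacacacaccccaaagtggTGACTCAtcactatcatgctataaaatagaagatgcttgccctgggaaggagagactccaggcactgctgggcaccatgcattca
Mmp12: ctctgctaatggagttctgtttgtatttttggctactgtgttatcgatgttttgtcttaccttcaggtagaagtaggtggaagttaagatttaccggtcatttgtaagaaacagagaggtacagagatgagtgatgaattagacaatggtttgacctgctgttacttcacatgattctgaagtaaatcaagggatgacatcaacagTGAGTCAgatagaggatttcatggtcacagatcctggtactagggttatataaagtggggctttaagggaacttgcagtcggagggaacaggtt
The AP-1 letters stand at bases -35 to -29 of Mmp13, which rose, and at -44 to -38 before the second start of Mmp12, which fell, and are in 5.2% of the 32851 promoters of the table. The windows of Mmp8, Mmp14, Mmp25 and Mmp27 and that of the first Mmp12 start hold none. The cyclic AMP response element TGACGTCA, found in 1.79% of promoters, is in none of the 7 windows available for 6 of the 9 genes. A match describes letters only and is not a bound site.

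The other 14 MMP genes of the table had too few counts to test, and 4 of them (Mmp1a, Mmp1b, Mmp20 and Mmp21) had 0 counts in all 6 libraries, which allows up to 3 counts or 0.125 to 0.149 CPM per library, for counting error only. Mmp7, matrilysin, had 2, 1 and 3 counts in IL-4+CGRP libraries and 0 in each IL-4 library, and Mmp10, stromelysin-2, had 0, 1 and 4 counts in IL-4+CGRP libraries and 6, 1 and 14 counts in IL-4 libraries.

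Of 8 listed MMP inhibitors 5 were tested and 1 rose. Timp1 measured 4.42, 6.11 and 4.10 CPM in IL-4+CGRP libraries and 2.53, 2.91 and 2.09 CPM in IL-4 libraries, a 1.94-fold rise (edgeR adjusted p = 0.0197) whose call ended when any IL-4 library was left out (edgeR adjusted p up to 0.122). Timp2, the most abundant inhibitor in CPM, averaged 522 ± 21.3 CPM in IL-4+CGRP cultures and 503 ± 10.7 CPM in IL-4 cultures (edgeR adjusted p = 0.62). Of 8 tested activators of pro-MMPs, edgeR, DESeq2 and limma-voom each called 0, with 1 at an unadjusted p under 0.05 in edgeR. Without IL-4+CGRP replicate 2, 1 activator gene fell, Plaur, the urokinase receptor (edgeR adjusted p = 0.0404). Furin, which cuts the prodomain of membrane MMPs, averaged 146 ± 3.97 CPM in IL-4+CGRP cultures and 140 ± 8.26 CPM in IL-4 cultures.

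Among 17 tested matrix and other substrates, 3 rose and 0 fell, against 7 and 1 without IL-4+CGRP replicate 2 and 2 and 0 without any other single library. Thbs1, thrombospondin-1, measured 338, 300 and 338 CPM in IL-4+CGRP libraries and 69.98, 80.8 and 76.8 CPM in IL-4 libraries, a 4.29-fold rise (edgeR adjusted p = 2.8e-08). Vcan, the proteoglycan versican, rose 2.51-fold (edgeR adjusted p = 0.0026), and Tnc, tenascin-C, rose 1.38-fold (edgeR adjusted p = 0.043), a call that held without IL-4+CGRP replicate 2 and ended without any other single library (edgeR adjusted p up to 0.163), with DESeq2 and with limma-voom, 8 of 16 alternatives in all. Of 15 tested surface partners and uptake receptors 2 rose and 2 fell, led by Itgam, an integrin subunit, at 554 ± 39.0 CPM in IL-4+CGRP cultures and 417 ± 9.71 CPM in IL-4 cultures (1.33-fold, edgeR adjusted p = 0.0012). Cd9, a tetraspanin, and Itgb2, the integrin partner of Itgam, were 1.24-fold and 1.12-fold lower, calls that ended under 3 and 11 of 16 alternatives. Without IL-4+CGRP replicate 2 these counts were 2 and 4, and without any other single library 1 rose and 0 to 2 fell. Of 21 tested transcription factors known to bind MMP promoters 3 rose and 1 fell, against 4 and 2 without IL-4+CGRP replicate 2 and 1 and 1 without any other single library. Ets2 averaged 25.8 ± 0.343 CPM in IL-4+CGRP cultures and 17.6 ± 0.534 CPM in IL-4 cultures (1.46-fold, edgeR adjusted p = 0.0014), and Atf3 averaged 439.6 ± 35.1 CPM in IL-4+CGRP cultures and 588 ± 16.8 CPM in IL-4 cultures (1.34-fold lower, edgeR adjusted p = 0.0015). Fosl2, an AP-1 subunit, rose 1.20-fold and Stat3 rose 1.18-fold (edgeR adjusted p = 0.0135 and 0.026), and both calls ended without any single library other than IL-4+CGRP replicate 2 (edgeR adjusted p up to 0.105 and 0.166).

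Calls in other protease families are given next, and differences between families were not tested. Of 12 tested ADAM and ADAMTS genes, edgeR, DESeq2 and limma-voom each called 0, with 5 at an unadjusted p under 0.05 in edgeR, and 3 rose without IL-4+CGRP replicate 2. Of 4 tested elastolytic and collagenolytic cathepsins 1 rose and 2 fell, and 0 fell when any library but IL-4+CGRP replicate 2 was left out. Ctsl, cathepsin L, averaged 1949 ± 151 CPM in IL-4+CGRP cultures and 1270.4 ± 69.3 CPM in IL-4 cultures (1.53-fold, edgeR adjusted p = 2.0e-04), and Ctss and Ctsb, cathepsins S and B, were 1.13-fold and 1.09-fold lower, calls that ended under 11 and 10 of 16 alternatives, DESeq2 and scaling by upper quartile or library totals among them. Cst3, cystatin C, a cathepsin inhibitor, did not pass the test (edgeR adjusted p = 0.69).

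Markers of other cells that make MMPs were read beside these results. Of 16 listed neutrophil and granulocyte precursor markers 11 were tested, and edgeR, DESeq2 and limma-voom each called 0, with 2 at an unadjusted p under 0.05 in edgeR. Their summed level ran from 405 to 444 CPM in IL-4+CGRP libraries and from 368 to 413 CPM in IL-4 libraries, most of it Csf3r, and Ly6g had 0 counts in all 6 libraries. Csf3r alone averaged 382 ± 26.0 CPM in IL-4+CGRP cultures and 349 ± 29.2 CPM in IL-4 cultures (edgeR adjusted p = 0.397). S100a9 averaged 13.4 ± 3.39 CPM in IL-4+CGRP cultures and 12.0 ± 3.07 CPM in IL-4 cultures. The 2 markers at an unadjusted p under 0.05 went in opposite directions. Mpo averaged 5.41 ± 1.13 CPM in IL-4+CGRP cultures and 7.29 ± 0.574 CPM in IL-4 cultures. Ltb4r1 averaged 3.03 ± 0.143 CPM in IL-4+CGRP cultures and 2.13 ± 0.455 CPM in IL-4 cultures. Of 10 tested fibroblast and stromal markers, edgeR, DESeq2 and limma-voom each called 0, with 2 at an unadjusted p under 0.05 in edgeR, and the summed level ran from 62.5 to 67.6 CPM in IL-4+CGRP libraries and from 54.1 to 58.1 CPM in IL-4 libraries. Without IL-4+CGRP replicate 2, 1 of these stromal markers rose. Of 8 tested osteoclast markers 4 fell (Ocstamp, Dcstamp, Acp5 and Atp6v0d2) and 0 rose (2 fell when any library but IL-4+CGRP replicate 2 was left out, and the Atp6v0d2 call also ended with library totals alone), with sums of 947 to 985 CPM in IL-4+CGRP libraries and 1059 to 1092 CPM in IL-4 libraries, and Calcr had 0 counts throughout. Of 8 tested dendritic cell markers 3 fell (Itgax, Ccr9 and Siglech) and 1 rose (Ccr7). Sums over the list were 108 to 111 CPM in IL-4+CGRP libraries and 194 to 198 CPM in IL-4 libraries. Nearly all of that gap was Itgax, at 62.9 ± 5.36 CPM in IL-4+CGRP cultures and 149 ± 3.91 CPM in IL-4 cultures. The call of Ccr7 ended without IL-4 replicate 2 (edgeR adjusted p = 0.0514), and that of Siglech ended without IL-4+CGRP replicate 1, IL-4 replicate 2 or IL-4 replicate 3 (edgeR adjusted p up to 0.132). Of 10 tested macrophage markers 2 rose, Cd14 (1.53-fold, edgeR adjusted p = 5.9e-04) and Itgam, and 0 fell, against 3 and 1 without IL-4+CGRP replicate 2. The 10 macrophage markers summed to between 14965 and 15332 CPM in IL-4+CGRP libraries and between 14723 and 14945 CPM in IL-4 libraries. The part of these marker differences in the MMP values was not tested.

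**Figure D5:**
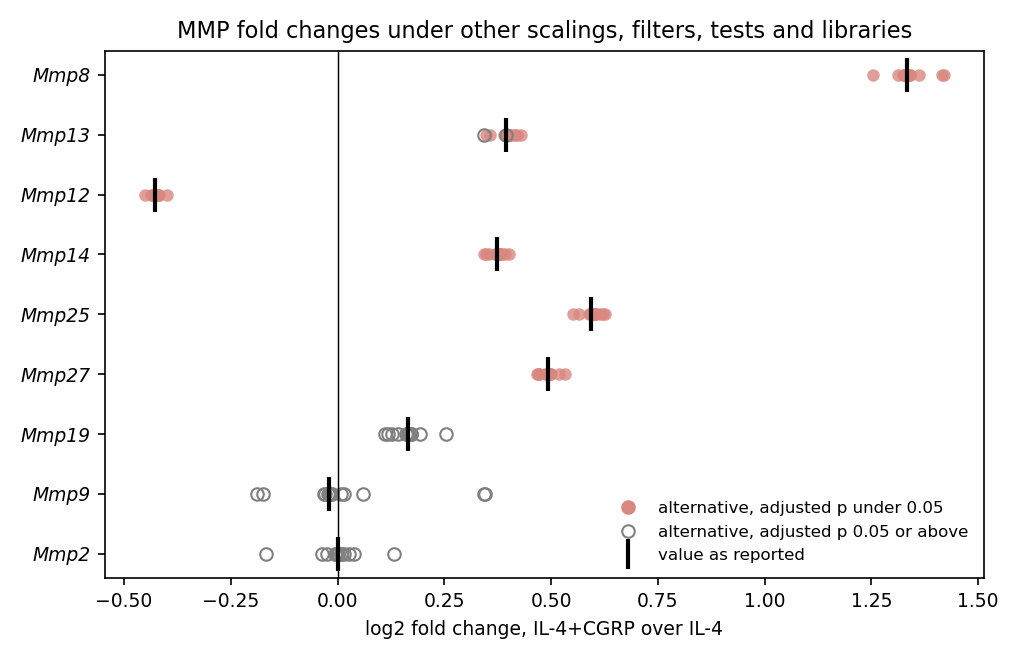
Log2 fold change of each MMP gene, IL-4+CGRP over IL-4, under other scalings, filters, tests and sets of libraries, filled where the adjusted p was under 0.05 and open where it was not, with a bar at the reported value. The alternatives for Mmp8 run from 1.25 to 1.42 and those for Mmp12 from -0.45 to -0.40, while those for Mmp2 and Mmp9 lie on both sides of 0.

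Among the 8759 tested genes whose mean log2 CPM was 3 or more, those whose log2 CPM followed Mmp8 most closely over the 6 libraries were Pmp22, Atrnl1 and Fcgr3 (Pearson r 0.9999, 0.997 and 0.997). Cd14, Tnfrsf26 and Pdpn followed Mmp27 (r 0.998, 0.995 and 0.994), and H2-M2, Lpl and Hyou1 followed Mmp12 (r 0.9997, 0.998 and 0.994). These are descriptions over 6 libraries in 2 treatment groups, which share the difference between the groups.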

How the data were processed

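Messenger RNA was sequenced from 6 libraries of mouse macrophages, 3 treated with IL-4+CGRP and 3 with IL-4, prepared from 1 µg of total RNA with a stranded kit, per the labels' protocols. The deposited table holds estimated counts per gene made by the authors. The submitters' processing notes name fastp, HISAT2, StringTie and build GRCm39. Their versions, the annotation, and how reads were counted, with or without strand, are not stated in those sources. In each library 23.3% to 26.6% of the values over 0 had a fractional part (tolerance 1e-06), and all were rounded before testing. The deposited length column, whose derivation is not given, served only for CPM per kilobase. The table has 525 genes without a name.

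Genes were filtered with filterByExpr (13260 kept, 99.91% of counts), scaled by TMM (0.985 to 1.016) and compared by the two-sided edgeR 4.0.16 quasi-likelihood test in R 4.3.3 with Benjamini-Hochberg adjustment. The biological coefficient of variation was 8.62%. Sums and ratios were compared by exact permutation in scipy 1.17.1. Within each group, libraries differed beyond sampling error (chi-square over degrees of freedom from 3.01 to 22), so no library was taken for a repeat deposit of another. This does not show that they come from separate cultures or animals. Overlapping genes and shared stretches (at least 95% identity over 100 bases) were looked up in GENCODE transcripts of an older build. Scripts were tested on simulated data.

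Alternatives were other scalings, other count filters, DESeq2 1.42.0, limma-voom (limma 3.58.1), a replicate block and leaving out each library. Within-library ratios, the cluster neighbours and further sums were added after seeing the data. So was the fit without IL-4+CGRP replicate 2 and IL-4 replicate 1, the most correlated pair across the groups (0.287). The members and gene lists were chosen with earlier results of these data known. All 9 members are named, with up to 4 called genes per context list by p, or 2 where none was called, the 2 most abundant markers per list, and 3 genes of similar pattern for each of 3 members. Some of the genes that rule names are not reported here.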

Additional observations from a re-analysis of the deposited data

How the results depend on the processing

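The 9 MMP genes gave 142 values under alternatives, of which 140 stayed on their side of the threshold and 2 lost a call. Both were Mmp13, with the replicate block (edgeR adjusted p = 0.0517) and without IL-4 replicate 2 (0.0609), where 4 MMPs were called higher. The log2 fold changes ranged from 0.34 to 0.43 for Mmp13, 0.34 to 0.40 for Mmp14, 0.55 to 0.63 for Mmp25, 0.47 to 0.53 for Mmp27 and 0.11 to 0.25 for Mmp19. Mmp9 ranged from -0.19 to 0.35 and Mmp2 from -0.17 to 0.13. Over all tested genes, the count called higher was 584 with no count filter and 176 with the replicate block, against 307. It was 915 without IL-4+CGRP replicate 2 and 140 to 194 without any other single library. Without both IL-4+CGRP replicate 2 and IL-4 replicate 1 it was 1066. The count called lower was 434 with no count filter and 86 with the replicate block, against 204. It was 950 without IL-4+CGRP replicate 2, 80 to 119 without any other single library, and 1187 without both of those libraries. The cause was not tested. The replicate numbers showed no sign of pairing: deviations of same-numbered libraries correlated at -0.188, -0.182 and 0.13. The largest correlation between libraries of the 2 groups was 0.287, for IL-4+CGRP replicate 2 with IL-4 replicate 1. With 3 libraries per group such values cannot show that the libraries were unpaired, and the labels do not say. For the 70 other genes examined, 100 of 1114 values under alternatives lost a call, 24 gained one and 0 reversed one. Mmp2 and Mmp9 had 32 to 58 counts per library, and the part of depth and of scatter between libraries in their wide intervals was not tested.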

Other observations

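Markers of further cell types gave the following counts. Of 4 tested endothelial markers 2 rose with CGRP, Pecam1 (1.45-fold, edgeR adjusted p = 0.0011) and Kdr, whose call ended when any library but IL-4+CGRP replicate 2 was left out (edgeR adjusted p up to 0.234) and with DESeq2. Of 4 tested eosinophil markers 1 fell, Siglecf, at 0.946 ± 0.226 CPM in IL-4+CGRP cultures and 3.197 ± 0.464 CPM in IL-4 cultures. Of 6 tested mast cell and basophil markers and 6 tested lymphocyte markers, edgeR, DESeq2 and limma-voom each called 0, with 2 and 0 at an unadjusted p under 0.05 in edgeR.

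Mmp11, stromelysin-3, had 1, 6 and 6 counts in IL-4+CGRP libraries and 0, 2 and 2 counts in IL-4 libraries. Mmp16, a membrane-type MMP, had 4 counts in each IL-4+CGRP library and 2, 2 and 1 counts in IL-4 libraries. Both were too low to test. So were Mmp3, Mmp15, Mmp17, Mmp23, Mmp24 and Mmp28, whose counts overlapped between the groups. Mmp3 had 6, 2 and 4 counts in IL-4+CGRP libraries and 3, 10 and 5 counts in IL-4 libraries. Mmp23 had 7, 7 and 5 counts in IL-4+CGRP libraries and 4, 6 and 10 counts in IL-4 libraries.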
